A study of Mus musculus with 12 samples.

Results

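In mouse bone-marrow monocytes, 9 genes differed in one direction after a night with platelets and in the opposite direction when lipopolysaccharide (LPS), a component of the bacterial outer membrane, followed the platelets. The 9 genes, Cd72, Tmem176b, Plxnd1, Jmjd1c, Adam19, Sdc1, Jdp2, Sla and Synj2, were selected on their fold changes and adjusted p-values: out of 53819 listed genes, they are among those whose platelet difference was called in opposite directions without and with LPS. Those values come from the counts analysed here, so the platelet differences of these genes, and how they changed with LPS, are given as descriptions and carry no test. The average response to LPS was not part of the choice and was tested. Of the 9 genes, 6 (Cd72, Plxnd1, Adam19, Sdc1, Jmjd1c and Synj2) were lower with platelets alone and higher with platelets before LPS. The other 3 (Tmem176b, Jdp2 and Sla) were higher with platelets alone and lower with platelets before LPS.

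RNA of monocytes from the bone marrow of wild-type C57Bl6J mice was sequenced in 4 groups of 3 libraries. NC monocytes were untreated, and PLT monocytes spent a night with platelets. LPS monocytes received LPS without platelets, and PLT_LPS monocytes spent the night with platelets, were washed and then received LPS. The sources used here do not give the doses, the time in LPS, the age and sex of the mice, the isolation of the monocytes or the origin of the platelets. They also do not say whether replicates came from separate mice or cultures, so a p-value here speaks of the spread among 12 libraries, which may be technical. In bulk RNA, a change in RNA per cell and a change in the share of cells carrying it cannot be told apart.

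Monocytes sense LPS through TLR4, which leads to activation of the NF-kB and AP-1 families of transcription factors and to a broad switch from the resting to the inflammatory programme. Platelets adhere to monocytes, mainly through P-selectin and its ligand, and deliver chemokines and other mediators to them. The 9 genes act at several levels of such a response: surface receptors and their processing (Cd72, Plxnd1, Sdc1, Adam19), intracellular membranes (Tmem176b), signalling adaptors and lipid phosphatases (Sla, Synj2), and the nucleus (Jdp2, Jmjd1c).

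Promoter sequences are shown because genes that differed with both LPS and platelets invite a look at the motif letters near their starts. Windows reaching from 250 bases before a RefSeq transcription start (GRCm38.p6) to just after it were matched for 8 of the 9 genes. Both strands were searched for 6 motifs, and matches may overlap. GAGGAAG, a core form bound by PU.1, the transcription factor that specifies monocytes and macrophages, was found for 6 of the 8 genes, against 15.4% of the 27025 genes in the table. The genes with it were Cd72, Tmem176b, Plxnd1, Adam19, Sdc1 and Jdp2. A gene counted when any of its windows matched, and genes differ in their number of windows. Tmem176b, Adam19 and Jdp2 had multiple windows, and not all of them matched. Jmjd1c and Synj2 had multiple windows too. Over all 32851 windows, 13.6% held the letters. The 27025 genes were not limited to those tested in these monocytes, and enrichment was not tested. Jmjd1c and Synj2, the pair of genes lowered by LPS, lacked these letters in their windows. Upstream stretches of 5 of the 6 genes with a match are printed 5′ to 3′ on the gene's strand, with GAGGAAG or its reverse complement CTTCCTC in capitals. They lie at chr4:43454629-43454876 on the minus strand for Cd72, chr6:115995006-115995255 on the minus strand for Plxnd1, chr11:46054252-46054501 on the plus strand for Adam19, chr12:8771146-8771322 on the plus strand for Sdc1 and chr12:85599228-85599415 on the plus strand for Jdp2.
Cd72: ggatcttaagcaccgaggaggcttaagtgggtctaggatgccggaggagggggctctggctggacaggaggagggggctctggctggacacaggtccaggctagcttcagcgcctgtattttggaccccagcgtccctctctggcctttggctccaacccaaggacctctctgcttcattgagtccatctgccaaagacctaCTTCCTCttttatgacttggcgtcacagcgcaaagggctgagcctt
Plxnd1: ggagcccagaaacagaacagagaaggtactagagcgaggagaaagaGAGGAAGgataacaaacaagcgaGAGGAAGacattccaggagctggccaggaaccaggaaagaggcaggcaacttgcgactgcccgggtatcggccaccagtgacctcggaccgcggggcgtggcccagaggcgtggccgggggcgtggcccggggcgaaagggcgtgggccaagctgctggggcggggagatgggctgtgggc
Adam19: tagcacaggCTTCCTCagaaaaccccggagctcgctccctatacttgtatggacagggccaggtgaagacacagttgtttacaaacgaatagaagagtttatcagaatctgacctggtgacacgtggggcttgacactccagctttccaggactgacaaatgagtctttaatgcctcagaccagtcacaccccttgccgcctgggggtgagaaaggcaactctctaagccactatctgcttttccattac
Sdc1: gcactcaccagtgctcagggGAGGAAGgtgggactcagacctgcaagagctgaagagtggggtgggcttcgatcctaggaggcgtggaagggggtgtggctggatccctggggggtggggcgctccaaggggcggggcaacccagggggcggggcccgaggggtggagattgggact
Jdp2: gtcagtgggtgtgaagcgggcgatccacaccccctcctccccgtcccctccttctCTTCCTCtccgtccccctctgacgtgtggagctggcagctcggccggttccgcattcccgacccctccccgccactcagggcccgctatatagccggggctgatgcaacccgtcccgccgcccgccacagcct

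Plxnd1 carried the motif at a pair of places, and in Cd72 it lay closest to the start, ending 42 bases before it. A general NF-kB form, GGGNNNNNCC, was found for 7 of the 8 genes and for 53.5% of all genes. The AP-1 form TGANTCA was found for 1 of the 8 (Adam19) against 8.97%, and the C/EBP form TTGCNNAA for 1 of the 8 (Sdc1) against 12.2%. TGACGTCA, the cyclic AMP response element, and GAAANNGAAA, an interferon response form, were found for 0 of the 8, against 2.03% and 3.99% of all genes. These are letter matches in short windows, not measured binding.

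Library totals ran from 20060867 to 32155727 counts, so that 3 counts correspond to 0.0854 to 0.163 CPM (counts relative to library size, scaled by edgeR's TMM factors). All 10 monocyte markers were detected in each group. In the platelet libraries, 9 of 15 tested platelet genes were called higher and 1 lower without LPS, and 10 higher and 1 lower with it. Over all tested genes, 3.63% were called higher without LPS and 4.41% with it. Some platelet genes differed little or stayed low, with Itgb3 at 0.914 CPM in NC and 0.870 in PLT, and Tubb1 at 0.0234 and 0.146. Gng11, a platelet G-protein subunit, averaged 1.81 CPM in NC, 99.5 in PLT, 2.01 in LPS and 64.6 in PLT_LPS. The most abundant genes of the list did not follow it. In the same order of groups, Pf4 averaged 3843, 4124, 4166 and 3515 CPM, and Ppbp 242, 174, 253 and 140 CPM. The list's sum, most of it Pf4, overlapped between groups. It was 3791 to 4500 CPM in NC, 3534 to 6380 in PLT, 3907 to 4720 in LPS and 3742 to 4015 in PLT_LPS. PLT replicate 1 is described as a control in 1 of its labels, while its title and treatment label place it with platelets, and its Gng11 level was the highest of all libraries at 147.7 CPM. It also stood apart from its replicates: the chi-square of its counts against theirs, divided by the degrees of freedom, came to 69.1 and 75.8, where the other replicate pairs ranged from 6.29 to 19.8. Its share of mitochondrial counts was 0.886%, against 0.431% to 0.600% in the other libraries. Markers of other cells also differed with platelets. Erythroid markers were called higher for 3 of 4 tested without LPS and 4 of 4 with LPS, and summed to 1.12 to 1.61 CPM in NC, 11.9 to 24.5 in PLT, 0.0362 to 0.65 in LPS and 7.08 to 9.35 in PLT_LPS. Basophil and mast cell markers were called higher for 4 of 6 without LPS and 2 of 6 with LPS. Their sums were 1.47 to 2.56 CPM in NC, 7.92 to 9.82 in PLT, 105 to 109 in LPS and 83.9 to 95.3 in PLT_LPS. Most of the sum in both LPS groups was the single gene Hdc, which averaged 103 CPM in LPS and 80.4 in PLT_LPS. Hdc averaged 0.231 CPM in NC and 0.645 in PLT. Of the 10 monocyte markers, 1 was called higher and 1 lower with platelets alone, and 4 higher and 2 lower with platelets under LPS. Of 7 tested neutrophil markers, 1 was called lower in each comparison. What PLT replicate 1, RNA of platelets and these other cells contribute to the differences below was not tested.

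A gene was called when its Benjamini-Hochberg adjusted p in edgeR's quasi-likelihood test was under 0.05, over the 13151 genes that passed the filter on low counts. The 9 genes passed that filter, and being called in both platelet comparisons is how they were chosen. Across all tested genes, 6.49% were called between PLT and NC (3.63% higher and 2.86% lower with platelets). Between PLT_LPS and LPS, 7.28% were called (4.41% higher and 2.87% lower), and 2.67% (351 genes) were called in both comparisons. Of those 351 genes, 336 moved the same way in both comparisons and 15 (0.114% of tested genes) moved in opposite directions. The 6 beyond the 9 described here were Noct, Il6ra, Gdf15, Il10ra, Spic and Zfp36l2. Of the 9 genes, those closest to the threshold from inside were Sdc1, with an edgeR adjusted p of 0.0482 without LPS, and Sla, with 0.0446 with LPS. Just outside stood Irf2, at 0.0511 in the larger of its values, and Furin, at 0.0533, both lower with platelets alone and higher with platelets before LPS.

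**Figure D1:**
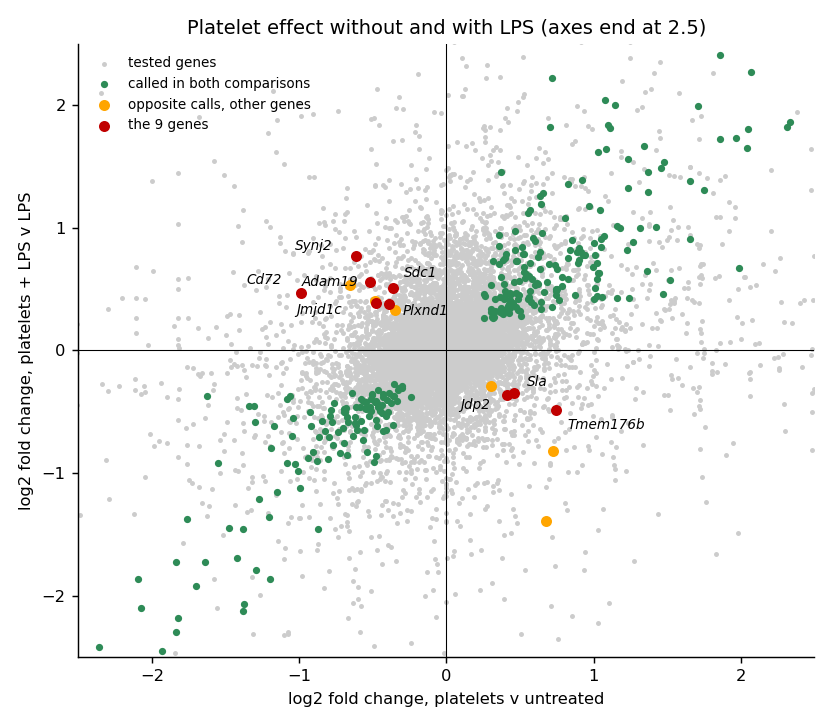
Each point is a gene, placed by its log2 fold change with platelets without LPS (x axis) and with LPS (y axis); green points were called in both comparisons, orange and red points in opposite directions. The 9 genes, in red and named, lie at the upper left (6) and lower right (3), while 336 of the 351 genes called in both comparisons lie at the upper right or lower left; 216 genes fall outside the axes, which end at 2.5.

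Cd72 encodes an inhibitory lectin-like receptor, best known from B cells, that binds Sema4d and recruits the phosphatase SHP-1. It was counted at 6.38, 6.28 and 6.19 CPM in the 3 NC libraries and at 2.99, 2.66 and 3.81 CPM in the 3 PLT libraries. With LPS, the level was 22.0, 23.2 and 20.5 CPM without platelets and 31.0, 31.4 and 28.7 CPM after platelets. The 4 groups did not overlap: PLT was lowest, then NC, then LPS, with PLT_LPS on top. The log2 difference with platelets was -0.99 (SE 0.14) without LPS and 0.47 (SE 0.12) with LPS. Averaged over platelet conditions, LPS raised Cd72 5.78-fold (log2 2.53, SE 0.09, edgeR adjusted p = 9.12e-13, all 6 LPS libraries above the other 6). The log2 rise with LPS was 1.80 without platelets and 3.26 after platelets.

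Reads of Cd72 need care, because 41.6% of its annotated exon bases overlap Tesk1, a kinase gene on the opposite strand, and it is not known whether the counting used strand. Tesk1, looked up after its values were seen, averaged 39.1 ± 3.35 CPM in NC, 27.3 ± 4.55 in PLT, 60.7 ± 6.02 in LPS and 74.1 ± 3.90 in PLT_LPS (SD, n = 3). Its groups stood in the same order as those of Cd72, with log2 differences with platelets of -0.51 (SE 0.12) without LPS and 0.29 (SE 0.12) with LPS. Reads from the overlap cannot be told apart, and their part in the Cd72 levels was not tested. Cd72 is also a B-cell gene and Sdc1 marks plasma cells, so B and plasma cell markers were counted. Their summed level was 20.4 to 23.9 CPM in NC, 20.1 to 24.1 in PLT, 35.3 to 37.9 in LPS and 17.6 to 24.2 in PLT_LPS, most of it Ighm. Pax5 and Mzb1 were at 0 counts in every library, and 3 of the 14 markers passed the filter, of which 1 was called lower in PLT_LPS than in LPS and 0 higher. What such cells contribute to Cd72 and Sdc1 was not tested.

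Plxnd1 encodes plexin D1, a receptor for semaphorins such as Sema3e. Its level was 72.0, 66.7 and 56.9 CPM in NC against 43.6, 51.3 and 54.1 CPM in PLT. In the LPS libraries it was 83.5, 87.7 and 92.7 CPM, and after platelets 109, 110.2 and 124 CPM. PLT was again the lowest group and PLT_LPS the highest, and the gap between the closest NC and PLT libraries was narrow, 56.9 against 54.1. With platelets the log2 difference was -0.39 (SE 0.11) alone and 0.38 (SE 0.11) with LPS, so the sizes were alike with opposite signs. LPS raised Plxnd1 1.76-fold on average (log2 0.82, SE 0.08, edgeR adjusted p = 1.09e-07, 6 of 6 libraries). On the log2 scale the rise was 0.43 without platelets and 1.20 after them.

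Sdc1 encodes syndecan-1, a cell-surface proteoglycan whose heparan sulphate chains bind growth factors and chemokines. NC libraries held 34.9, 38.3 and 37.4 CPM and PLT libraries 23.8, 30.8 and 31.4 CPM. LPS libraries held 48.1, 48.5 and 48.9 CPM, and PLT_LPS libraries 65.6, 69.0 and 72.4 CPM. The LPS libraries were nearly identical, and the lowest PLT value came from replicate 1. Platelets went with a log2 difference of -0.36 (SE 0.10) without LPS and of 0.51 (SE 0.10) with it. Without PLT replicate 1, the first of these was -0.23 (SE 0.08). LPS raised Sdc1 1.78-fold on average (log2 0.83, SE 0.07, edgeR adjusted p = 5.68e-08, 6 of 6 libraries), by 0.40 on the log2 scale without platelets and by 1.27 after them.

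Adam19 encodes a membrane-anchored metalloprotease that releases growth factors such as neuregulins from the cell surface. It stood at 12.6, 13.8 and 11.6 CPM in NC and at 8.87, 9.97 and 7.69 CPM in PLT. After LPS it stood at 30.4, 37.0 and 36.2 CPM, and with platelets before LPS at 51.8, 45.5 and 55.1 CPM. Platelets thus went with the lowest and the highest group, and no groups overlapped. The log2 difference with platelets was -0.52 (SE 0.13) without LPS and 0.56 (SE 0.12) with LPS. LPS raised Adam19 3.96-fold on average (log2 1.99, SE 0.09, edgeR adjusted p = 1.2e-11, 6 of 6 libraries), by 1.45 without platelets and 2.52 after them on the log2 scale. A pair of antisense genes overlapping its exons, Gm16033 and Gm16034, were not among the tested genes.

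In Cd72, Plxnd1, Sdc1 and Adam19 the order of the groups was the same, PLT, NC, LPS, PLT_LPS from lowest to highest. Their range between resting and LPS libraries was therefore wider after platelets than without them. In the other 5 genes the range was narrower after platelets. These ranges contain the platelet differences that chose the genes and are not tested. Group separation itself was common: the libraries of PLT and NC did not overlap for 25.1% of tested genes, those of PLT_LPS and LPS for 27%, and the 6 LPS and 6 other libraries for 39.1%. All 9 genes were separated in each of these comparisons. For the platelet comparisons this comes from the same values that chose the genes and adds no support. Over all tested genes, 0.814% had no overlap between any groups together with opposite platelet directions.

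**Figure D2:**
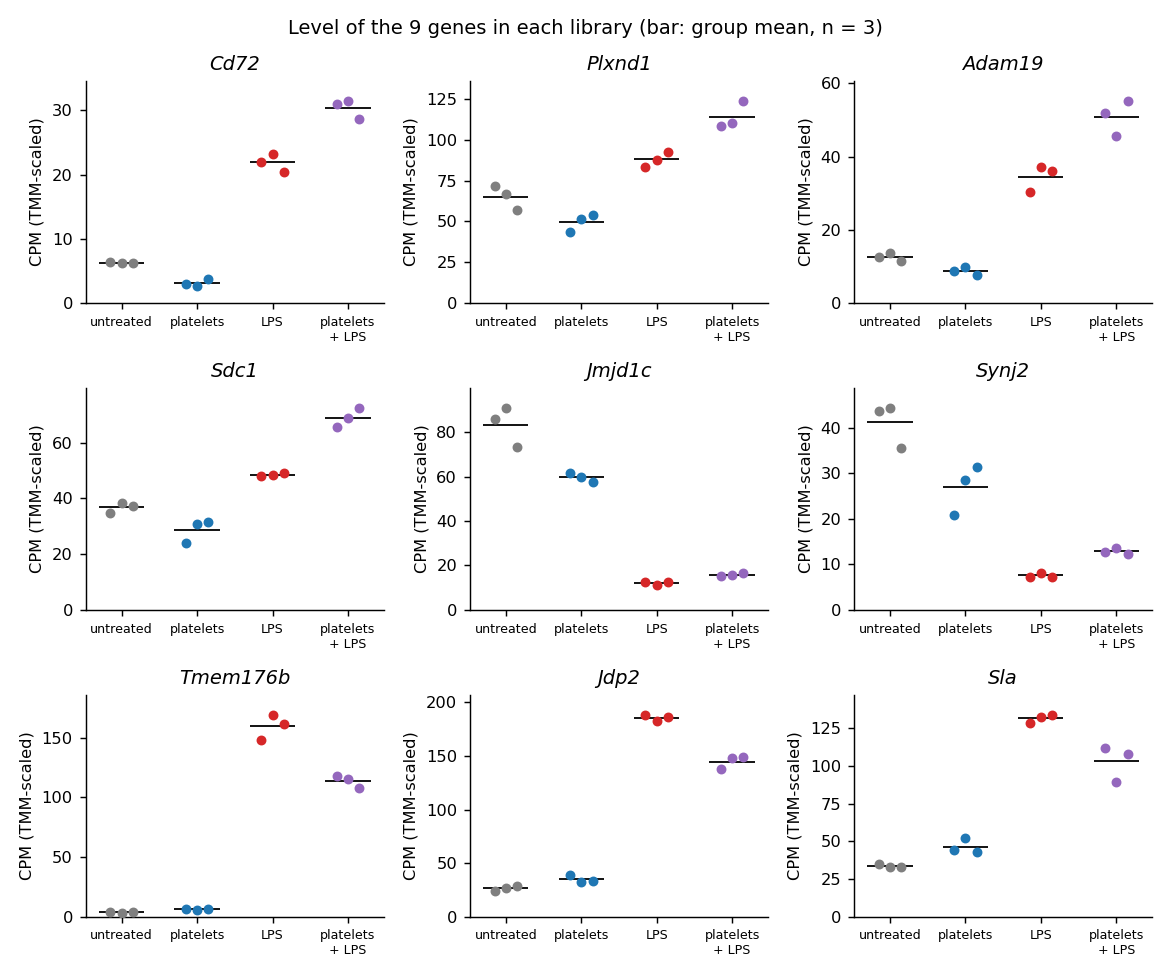
Points are libraries and bars the means of 3, in TMM-scaled CPM on a linear axis from 0, for the 9 genes in the 4 groups. In Cd72, Plxnd1, Adam19 and Sdc1 the PLT libraries are the lowest and the PLT_LPS libraries the highest; Jmjd1c and Synj2 fall with LPS, and Tmem176b, Jdp2 and Sla peak in LPS without platelets.

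Tmem176b encodes a multi-pass membrane protein of endosomes and lysosomes, related to the MS4A family and known from immature dendritic cells. Resting levels were 4.03, 3.54 and 3.81 CPM in NC and 6.62, 5.78 and 6.72 CPM in PLT. LPS brought it to 148, 169 and 162 CPM without platelets and to 118, 115 and 108 CPM after platelets. PLT was above NC and PLT_LPS below LPS in every library. Compared with no platelets, the log2 difference was 0.75 (SE 0.11) without LPS and -0.49 (SE 0.09) with it. LPS raised Tmem176b 27.4-fold on average (log2 4.77, SE 0.07, edgeR adjusted p = 3.46e-17, 6 of 6 libraries), the largest LPS response of the 9 genes. The log2 rise was 5.39 without platelets and 4.15 after them. Tmem176a, its neighbour and closest relative, shares 3.42% of the exon bases of Tmem176b on the opposite strand. It averaged 1.05 ± 0.358, 1.71 ± 0.385, 68.4 ± 4.03 and 52.3 ± 5.19 CPM in NC, PLT, LPS and PLT_LPS (SD, n = 3). Its platelet differences had the same signs, 0.69 (SE 0.23) and -0.39 (SE 0.14) on the log2 scale, and neither was called (edgeR adjusted p = 0.0966 and 0.112). The change of its platelet effect with LPS, log2 -1.07 (SE 0.27), was not called either (edgeR adjusted p = 0.0635). Tmem176a was picked for mention after its values were seen. Markers of dendritic cells summed to 148 to 160.2 CPM in NC, 202 to 273 in PLT, 453 to 526 in LPS and 603 to 654 in PLT_LPS, with 4 of 11 tested called higher with platelets alone. Under LPS, 0 of the 11 were called higher with platelets and 0 lower. Most of each sum was the single gene Bst2, which averaged 90.9 CPM in NC, 158 in PLT, 305 in LPS and 429 in PLT_LPS. The part of dendritic cells in the Tmem176b level was not tested.

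Sla encodes SLAP, an adaptor that brings the ubiquitin ligase CBL to tyrosine kinases and receptors and so limits their signalling. NC libraries were at 35.2, 32.7 and 32.7 CPM and PLT libraries at 44.0, 51.8 and 42.7 CPM. LPS libraries were at 128, 132 and 134 CPM, with PLT_LPS libraries below them at 112, 89.1 and 108 CPM. PLT_LPS varied most, its second library lying furthest below LPS. The log2 difference with platelets was 0.46 (SE 0.10) without LPS and -0.35 (SE 0.10) with it. LPS raised Sla 2.96-fold on average (log2 1.56, SE 0.07, edgeR adjusted p = 1.7e-11, 6 of 6 libraries). The log2 rise was 1.97 without platelets and 1.16 after them.

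Synj2 encodes synaptojanin-2, an inositol phosphatase that acts on membrane phosphoinositides during endocytosis and downstream of Rac. It stood at 43.6, 44.3 and 35.5 CPM in NC and at 20.8, 28.5 and 31.4 CPM in PLT. LPS brought it to 7.31, 8.17 and 7.25 CPM without platelets and to 12.8, 13.7 and 12.4 CPM after platelets. The groups did not overlap, with NC on top and LPS without platelets at the bottom. Platelets went with a log2 difference of -0.61 (SE 0.14) without LPS and 0.77 (SE 0.15) with LPS. PLT replicate 1 was the lowest of its group, and without it the resting difference was -0.44 (SE 0.12). LPS lowered Synj2 3.36-fold on average (log2 -1.75, SE 0.10, edgeR adjusted p = 4.33e-10, 6 of 6 libraries below the other 6), by log2 -2.44 without platelets and -1.06 after them. Serac1, on the opposite strand, overlaps 3.56% of its exon bases and averaged 3.61, 4.64, 2.15 and 2.56 CPM in NC, PLT, LPS and PLT_LPS.

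Jdp2 encodes a bZIP transcription factor that pairs with Jun and ATF proteins and represses AP-1 targets. Its level was 23.7, 27.0 and 28.4 CPM in NC and 39.4, 32.7 and 33.2 CPM in PLT, with replicate 1 the highest PLT library. With LPS it was 188, 182 and 187 CPM without platelets and 137, 148 and 149 CPM after platelets. The LPS libraries lay within a few percent of each other and above all PLT_LPS libraries. On the log2 scale, the difference with platelets was 0.41 (SE 0.10) without LPS and -0.36 (SE 0.09) with it. LPS raised Jdp2 5.39-fold on average (log2 2.43, SE 0.07, edgeR adjusted p = 3.35e-14, 6 of 6 libraries), by 2.82 without platelets and 2.04 after them on the log2 scale. An antisense-strand noncoding gene at its start, Gm47863, overlaps 7.68% of its exon bases and averaged 0.831, 1.85, 2.32 and 2.94 CPM in NC, PLT, LPS and PLT_LPS, far fewer reads than Jdp2.

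Jmjd1c encodes a large JmjC-domain protein of the family of lysine-9 histone H3 demethylases. NC libraries held 85.7, 90.9 and 73.4 CPM and PLT libraries 61.7, 59.9 and 57.6 CPM. LPS took it to 12.6, 11.4 and 12.4 CPM without platelets and to 15.5, 15.7 and 16.4 CPM after platelets. NC was the highest group and LPS without platelets the lowest, with tight replicates in PLT and in both LPS groups. Its log2 difference with platelets was -0.48 (SE 0.09) without LPS and 0.39 (SE 0.10) with it. LPS lowered Jmjd1c 5.09-fold on average (log2 -2.35, SE 0.07, edgeR adjusted p = 6.6e-14, 6 of 6 libraries below the other 6), by log2 -2.78 without platelets and -1.91 after them.

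**Figure D3:**
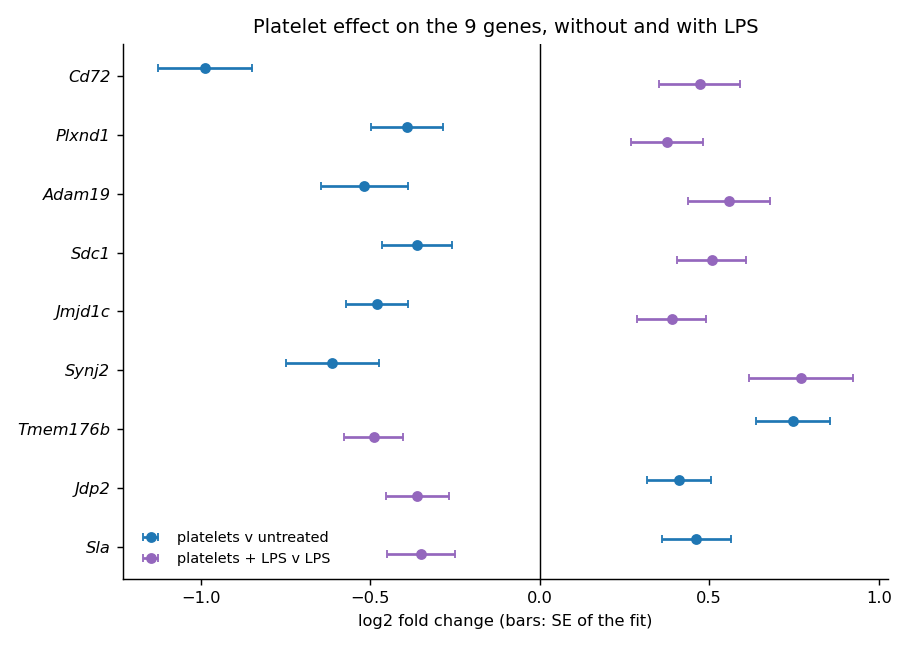
Log2 difference with platelets (x axis) for each of the 9 genes, without LPS (blue) and with LPS (purple); bars are standard errors of the fit over 12 libraries. Blue and purple points lie on opposite sides of 0 for every gene, as the choice of genes requires, with blue running from -0.99 for Cd72 to 0.75 for Tmem176b and purple from -0.49 for Tmem176b to 0.77 for Synj2.

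The LPS response was thus called for all 9 genes, 7 upward and 2 downward, where 61.1% of all tested genes were called (32.6% upward and 28.5% downward). For the 9 genes, this is the only comparison tested, since its contrast was not used to choose them, although it shares the fitted dispersions with the contrasts that did. The other 6 genes called in opposite directions were called in it too. With library size in place of TMM scaling, the median gene shifted by -0.36 on the log2 scale in this comparison and the split of calls over all genes went from 4288 higher and 3752 lower to 2462 higher and 7055 lower. Directions of the 9 genes did not change under that scaling, with Plxnd1 at 0.44 and Sdc1 at 0.46 as the smallest. PLT replicate 1 was the most extreme PLT library, in the direction of the platelet difference, for 4 of the 9 genes (Plxnd1, Sdc1, Synj2 and Jdp2). Leaving it out kept the sign of every platelet difference among the 9 and both opposite calls of 7. Plxnd1 and Sdc1 lost that pair of calls, and the platelet difference of Plxnd1 without LPS became log2 -0.29 (SE 0.10).

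**Figure D4:**
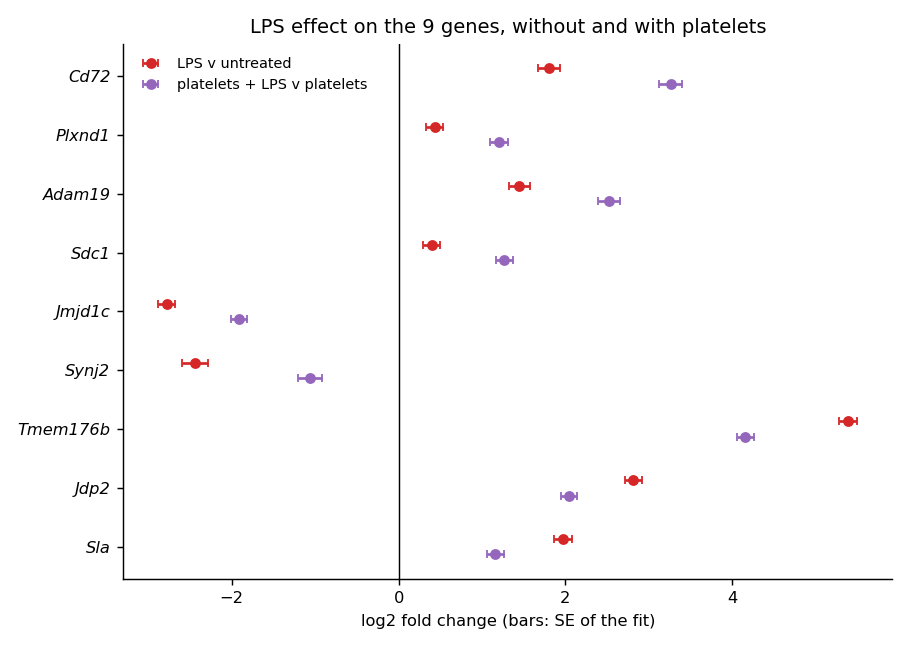
Log2 difference with LPS (x axis) for the 9 genes, without platelets (red) and after platelets (purple); bars are standard errors. Purple lies further from 0 than red for Cd72, Plxnd1, Adam19 and Sdc1 and nearer to 0 for the other 5 genes, with Tmem176b highest at 5.39 and 4.15 and Jmjd1c lowest at -2.78 and -1.91.

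Relatives and partners of the 9 genes were described from 9 lists holding 186 genes, of which 164 were tested. Without LPS, platelets changed 16 of them (10 higher, 6 lower, 9.76% against 6.49% of all tested genes). With LPS they changed 18 (13 higher, 5 lower, 11% against 7.28%). The platelet difference itself depended on LPS for 6 of them (3.66% against 1.58%), and LPS on average changed 131 (84 higher, 47 lower, 79.9% against 61.1%). These counts leaned on single libraries: without PLT replicate 1 the 18 became 36 and the 6 became 11, without NC replicate 2 the 16 became 10, and without NC replicate 2, LPS replicate 1 or PLT_LPS replicate 3 the 6 became 3. By edgeR, 0 of the 164 were called in opposite directions in both platelet comparisons, DESeq2 called 1 and limma-voom 0. At an unadjusted edgeR p below 0.05 in both comparisons, 1 had opposite directions, Tmem176a. Over all tested genes the median log2 difference was 0 with platelets alone, 0.01 with platelets under LPS and 0.01 for LPS on average.

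Among 15 tested partners of Cd72 and other inhibitory receptors, platelets alone raised 4 and lowered 1 (median log2 0.05), and under LPS raised 1 and lowered 2 (median -0.09). LPS on average raised 12 and lowered 3 (median 1.34). Sema4d, the Cd72 ligand and also a plexin ligand, fell with platelets alone, from 130.2 ± 13.3 to 81.2 ± 21.2 CPM (SD, n = 3, log2 -0.68, SE 0.14, edgeR adjusted p = 0.00976, and 0.0582 without NC replicate 2). With LPS it was 379 ± 15.3 CPM without and 316 ± 22.9 CPM after platelets (log2 -0.26, adjusted p = 0.35). Blnk, an adaptor downstream of Syk, rose with platelets in both settings, from 48.3 to 75.0 CPM and from 116 to 183 CPM (log2 0.63 and 0.66, edgeR adjusted p = 9.2e-05 and 5.49e-05). Syk, the kinase itself, fell with platelets under LPS, from 643 ± 29.7 to 476 ± 5.28 CPM (log2 -0.44, SE 0.09, edgeR adjusted p = 0.00559). Fcgr2b, the inhibitory Fc receptor, rose with platelets alone from 30.6 ± 0.676 to 47.9 ± 3.20 CPM (log2 0.65, SE 0.08, edgeR adjusted p = 8.35e-05), while under LPS it was 476 ± 7.84 and 504 ± 24.9 CPM (log2 0.08, adjusted p = 0.618). The difference between these effects was log2 -0.56 (SE 0.11, edgeR adjusted p = 0.0155, up to 0.0681 over 19 alternatives).

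The 7 relatives of Tmem176b, Tmem176a and genes of the MS4A family, held 1 gene called with platelets alone and 0 under LPS by edgeR (DESeq2 and limma-voom each called 1, and 2 had an unadjusted p below 0.05). Their median log2 difference was -0.01 alone and 0.18 under LPS, and LPS on average raised 6 of the 7 (median 1.55). The gene called was Ms4a6b, which fell from 118 ± 3.11 to 97.3 ± 5.45 CPM (log2 -0.28, SE 0.08, edgeR adjusted p = 0.0401). That call was lost in 14 of 19 alternatives, with adjusted p up to 0.171. Of 17 tested plexins, neuropilins and semaphorins, 1 rose and 2 fell with platelets alone (median -0.06) and 1 rose under LPS (median 0.17). Sema3c, a secreted semaphorin, fell from 8.46 ± 1.32 to 3.14 ± 0.598 CPM with platelets alone (log2 -1.42, SE 0.19, edgeR adjusted p = 0.000193). Under LPS it was 15.7 ± 1.5 CPM without and 11.3 ± 2.01 CPM after platelets (log2 -0.47, adjusted p = 0.135), so that both of its differences were negative.

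ADAM proteases and their regulators held 10 tested genes, with 1 higher and 1 lower with platelets alone (median -0.03) and 2 higher under LPS (median -0.01). Both of the latter were metalloprotease inhibitors. Timp2 rose from 43.0 ± 1.42 to 135 ± 14.4 CPM with platelets alone and from 20.4 ± 2.34 to 53.3 ± 3.18 CPM under LPS (log2 1.66 and 1.38, edgeR adjusted p = 7.8e-08 and 5.02e-07). Timp1 rose under LPS from 1.31 ± 0.383 to 4.53 ± 0.353 CPM (log2 1.79, SE 0.37, edgeR adjusted p = 0.00714). Of 18 tested syndecan and heparan sulphate genes, 2 rose with platelets alone and 2 under LPS, 0 fell in either, and both medians were near those of all genes (-0.00 and -0.02). Hpse, the enzyme that cleaves heparan sulphate, rose under LPS from 17.3 ± 1.02 to 30.5 ± 1.15 CPM (log2 0.82, SE 0.12, edgeR adjusted p = 0.000357). With platelets alone it also rose, from 18.3 ± 0.684 to 25.2 ± 3.74 CPM (log2 0.47, SE 0.11, edgeR adjusted p = 0.0227). The call with platelets alone was lost in 5 of 19 alternatives. The difference between the effects on Hpse was not called (edgeR adjusted p = 0.447). Srgn, the core protein of the granule proteoglycan serglycin, rose with platelets alone from 49.9 ± 4.85 to 83.8 ± 17.6 CPM (log2 0.75, SE 0.12, edgeR adjusted p = 0.00126). Under LPS it was 365 ± 6.80 and 364 ± 10.7 CPM, and the change in the platelet effect was log2 -0.75 (SE 0.17, edgeR adjusted p = 0.0353, up to 0.128 over the 19 alternatives and lost in 9 of them). Extl3, a glycosyltransferase of heparan sulphate chains, rose with platelets under LPS, from 29.6 ± 1.79 to 43.9 ± 3.14 CPM (log2 0.57, SE 0.10, edgeR adjusted p = 0.00246), and was 55.6 ± 6.04 and 50.5 ± 2.95 CPM at rest. Its platelet effect changed with LPS by log2 0.71 (SE 0.14, edgeR adjusted p = 0.0192, lost in 6 of 19 alternatives).

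Partners of Jdp2 were the 31 tested AP-1, ATF and other bZIP factors, of which 1 rose with platelets alone (median 0.02), while 4 rose and 2 fell under LPS (median -0.00). Fos, the immediate-early AP-1 subunit, was 187 ± 4.47 CPM in NC and 183 ± 5.19 in PLT, against 127 ± 4.60 in LPS and 247 ± 3.35 in PLT_LPS (log2 0.95 with LPS, SE 0.07, edgeR adjusted p = 4.61e-07). Jun, its partner, rose under LPS from 37.3 ± 5.85 to 58.6 ± 3.97 CPM (log2 0.65, SE 0.11, edgeR adjusted p = 0.00154). Batf, which pairs with Jun, rose with platelets alone from 6.01 ± 0.484 to 10.5 ± 1.21 CPM (log2 0.80, SE 0.11, edgeR adjusted p = 0.00034), and under LPS it was 102 ± 2.27 and 99.3 ± 8.42 CPM. The platelet effect changed with LPS by log2 0.99 for Fos (edgeR adjusted p = 0.00011) and -0.83 for Batf (edgeR adjusted p = 0.00827), and both calls were kept in all 19 alternatives. Cebpd fell with platelets under LPS, from 522 ± 41.3 to 367 ± 13.8 CPM (log2 -0.51, SE 0.10, edgeR adjusted p = 0.00483). In each of these, at most 1 of the platelet differences was called. That is no contrast to Jdp2, which was chosen for its opposite calls while these genes were not. Over all tested genes, 0.114% had opposite calls.

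**Figure D5:**
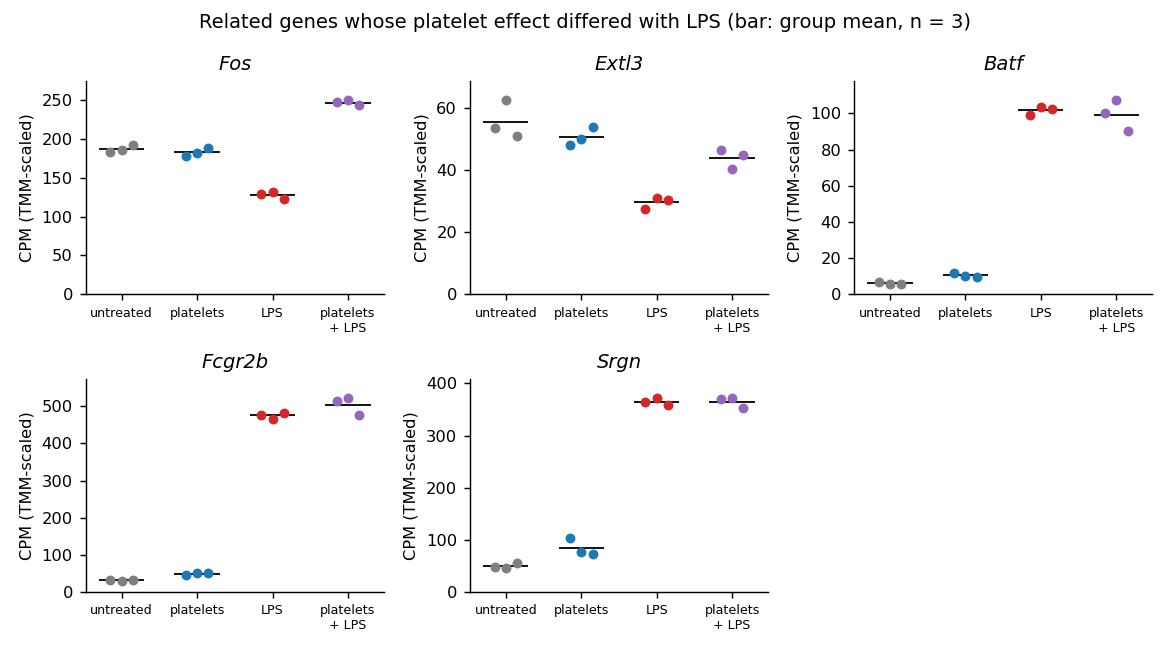
Points are libraries and bars the means of 3, in TMM-scaled CPM on linear axes from 0, for 5 related genes whose platelet effect differed with LPS. Fos and Extl3 are higher after platelets in the LPS libraries only, while Batf, Fcgr2b and Srgn are higher with platelets at rest and overlap between the LPS groups.

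Among 19 tested Src-family kinases, CBL proteins and adaptors that work with SLAP, 1 rose and 1 fell with platelets alone (median 0.00) and 2 rose and 1 fell under LPS (median 0.04). Fgr, a myeloid Src-family kinase, rose in both, from 27.9 ± 2.97 to 42.9 ± 7.45 CPM and from 78.1 ± 2.78 to 133 ± 7.96 CPM (log2 0.62 and 0.76, edgeR adjusted p = 0.00492 and 0.000781). The 30 tested phosphoinositide phosphatases and kinases, relatives of Synj2, held 1 gene that fell with platelets alone (median -0.16), and 1 that rose and 1 that fell under LPS (median -0.12). Inppl1, the phosphatase SHIP2, fell with platelets alone from 55.1 ± 0.301 to 38.5 ± 0.685 CPM (log2 -0.52, SE 0.09, edgeR adjusted p = 0.0034), and under LPS it was 51.6 ± 5.38 and 41.3 ± 3.64 CPM (log2 -0.32, adjusted p = 0.0558). Pik3r1, a regulatory subunit of phosphoinositide 3-kinase, fell under LPS from 51.6 ± 4.67 to 37.0 ± 4.93 CPM (log2 -0.48, SE 0.11, edgeR adjusted p = 0.0145). That call was lost without LPS replicate 2, LPS replicate 3 or PLT_LPS replicate 2, with adjusted p up to 0.0852. The 20 JmjC demethylases, relatives of Jmjd1c, held 0 genes called in either platelet comparison by edgeR, DESeq2 or limma-voom, with 3 at an unadjusted p under 0.05 without LPS and 2 with LPS (medians -0.17 and -0.08). LPS on average raised 14 of them and lowered 2 (median 0.49), whereas Jmjd1c fell.

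The genes whose levels most resembled each of the 9 were sought over the 12 libraries among 10425 tested genes with a mean of at least 1 CPM, by Pearson's r of log2 CPM. LPS dominates such likeness, and r is a description across libraries that share treatments, with no test. Larp1, an RNA-binding regulator of translation, was the closest to both Cd72 (r = 0.989) and Adam19 (r = 0.993), and its platelet differences were log2 -0.26 without LPS and 0.23 with LPS. Il10, the anti-inflammatory cytokine, was next for Cd72 (r = 0.988), with -1.47 and 0.30. For Adam19 it was Slc25a37, a mitochondrial iron carrier (r = 0.991). Adcy7, an adenylate cyclase, resembled both Plxnd1 (r = 0.981) and Sdc1 (r = 0.973), joined by Prdm9 for Plxnd1 (r = 0.979) and by the sphingosine phosphate receptor S1pr2 for Sdc1 (r = 0.979). Stab1, a scavenger receptor (r = 0.985), and Apobec1, an RNA-editing deaminase (r = 0.983), were closest to Synj2. Nop56, of the ribosome-assembly machinery (r = 0.996), and Rab7b (r = 0.994) were closest to Jmjd1c. Cd82 and Nfkb2, a tetraspanin and an NF-kB subunit, both had r = 0.998 with Tmem176b. Rrad (r = 0.999) and Rnaset2a (r = 0.996) were closest to Jdp2, and Tspan3 and Rasgef1b (both r = 0.991) to Sla.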

How the data were processed

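Gene counts of 12 libraries, 3 in each of 4 groups assigned by sample titles, were used as deposited by the authors, as whole-number counts per gene with no normalization. Per the labels' protocols, cDNA was amplified from very little RNA (SMARTer kit) and made into Nextera XT libraries. Salmon 1.5.2, featureCounts (Subread 2.0.1), STAR 2.7.9a and fastp 0.23.1 are listed in the submitters' processing notes, with no role. The strand setting, annotation and genome build: not given in the sources used here.

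Of 53819 listed genes, 26048 had a count and 13151 passed edgeR's filterByExpr. Counts were scaled by TMM and fitted with edgeR 4.0.16 (R 4.3.3) by quasi-likelihood over the means of the 4 groups, with 8 residual degrees of freedom and Benjamini-Hochberg adjustment. The contrasts were platelets without LPS, platelets with LPS, their difference, and LPS averaged over platelet conditions. The last is orthogonal to the others. Alternatives used DESeq2 1.42.0, limma 3.58.1 (voom), other scalings and filters, a replicate block, and each library left out. The steps were tested on simulated data. The 9 genes, the gene lists and the motifs were chosen with earlier results of these data known. Genes beyond the 9 were named by rule: in each list, up to 3 whose platelet effect differed with LPS and up to 2 more with the smallest p in a platelet contrast, and for each of the 9, the 2 genes with the highest correlation, leaving out predicted genes. Gene overlaps came from GENCODE M21, which held all 9 genes. Replicate libraries differed by more than counting error in every pair. Some genes named by this rule are not reported here.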

Additional observations from a re-analysis of the deposited data

Results flagged for a closer look

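The 9 genes were picked because their platelet effect reversed with LPS, and the difference between the 2 effects, LPS minus no LPS, is listed here as a value that was not tested. On the log2 scale it was 1.46 for Cd72, -1.24 for Tmem176b, 0.77 for Plxnd1, 0.87 for Jmjd1c, 1.08 for Adam19, 0.87 for Sdc1, -0.77 for Jdp2, -0.81 for Sla and 1.38 for Synj2. Among related genes, where the difference was tested with edgeR, it was 0.99 for Fos, -0.83 for Batf, 0.71 for Extl3, -0.75 for Srgn and -0.56 for Fcgr2b. The last 3 lost their call in 6, 9 and 5 of 19 alternatives.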

How the results depend on the processing

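All 684 values of the 9 genes, over 4 contrasts and 19 alternatives, kept their sign, and the LPS response of each was called throughout. For the platelet contrasts that chose the genes, and their difference, kept signs are no support, since the alternatives reuse the same libraries. The calls that chose the genes were less steady. The number called in opposite directions, 9 of 9, was 5 with no filter on low counts and 2 to 8 when a library was left out. Both calls held in all 19 alternatives for Tmem176b alone, in 17 for Synj2, in 14 for Adam19 and in 13 for Cd72. They held in 10 for Jmjd1c, in 9 for Jdp2, in 6 each for Plxnd1 and Sla, and in 4 for Sdc1. Over all genes, the 15 called in opposite directions became 9 with library size alone, 33 with DESeq2 and 4 to 32 with a library left out, the highest without PLT replicate 1 and the lowest without NC replicate 2. The 208 genes whose platelet effect differed with LPS became 371 with no filter, 403 with DESeq2 and 87 to 361 with a library left out. The platelet effect without LPS, 854 genes, became 1291 with DESeq2 and 410 to 1027 with a library left out. The platelet effect with LPS, 957 genes, ranged from 557 to 1640 with a library left out, and the average LPS effect, 8040 genes, from 7731 to 8461. Related genes called, an alternative chosen after seeing the data, ranged from 10 to 22 without LPS (16), from 12 to 36 with LPS (18) and from 3 to 11 for the difference (6, or 12 with DESeq2). The cause of these shifts was not tested.

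With the replicate block, the genes called in opposite directions fell to 7, the 9 to 3, the 208 to 118, and the 6 related genes to 3. Samples with the same number did not deviate together more than others (r from -0.228 to 0.140 over 18 pairs, and from -0.189 to 0.239 over 36 pairs of different numbers). With 3 libraries per group, this cannot tell whether the samples were paired by number. Depth puts 3 counts at 0.0854 to 0.163 CPM, below every value of the 9 genes, and each group has 3 libraries.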
